A study of Mus musculus with 2 samples.

Results

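The 58 rows of the feature table whose symbols name a CC or CXC chemokine or one of their receptors were followed through the cell classes of 2 single-cell RNA sequencing libraries of mouse liver. They comprise 42 ligand rows and 16 receptor rows among 32285 gene rows, and they carry 52 symbols, since some ligands are listed under several gene identifiers. The WT library (genotype CTRL) came from liver. The N-LKO library (genotype NgBR KO) came from liver plus tumor of mice in which albumin-Cre had deleted the loxP-flanked Nus1 gene, which encodes NgBR, in hepatocytes. Both groups were male mice on a C57BL6 background and had received the diet for 16 weeks, which the treatment labels call WD and the sample titles HFD. The sources used here do not state whether the controls carried Cre or loxP alleles. Hepatocytes and nonparenchymal cells, with tumor cells added for N-LKO, were combined in set proportions before loading, and shares of cells therefore describe that mixture. Each group had 1 library, and genotype, tumor tissue and library cannot be told apart in any value below.

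Chemokines are small secreted proteins that bind heparan sulfate on cell surfaces and guide leukocytes that carry matching G protein-coupled receptors. Some ligands are made constantly and hold cells in place, such as Cxcl12 and Cxcl13. Others are switched on by inflammatory cytokines, such as the neutrophil attractants Cxcl1 and Cxcl2, the monocyte attractant Ccl2 and the interferon-induced Cxcl9 and Cxcl10. In the liver, Kupffer cells, stellate cells, sinusoidal endothelial cells and hepatocytes are all known sources.

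The WT matrix held 85522287 UMIs over 100171 barcodes and the N-LKO matrix 87575064 UMIs over 90147 barcodes. The members took 898 UMIs per 1000000 (CPM) of the WT total and 1201 in N-LKO. The filters left 18434 cells of WT (median 1401 UMIs) and 19851 of N-LKO (median 1454 UMIs), which were grouped into classes, which are written as "X-like" because their names were rebuilt from marker genes. In total 2499 barcodes occurred in both matrices, 122 of them among the cells. Nus1 itself was at 74.5 CPM for WT and 39.4 CPM in N-LKO hepatocyte-like cells (1201 and 181 UMIs). The paper places the loxP sites around the first exon, so 3′ tags of the last exon lie outside the deleted part. The RNA of barcodes under 500 UMIs, scaled to the UMIs of other classes' markers in a class, made up 37.9% to 100% of the UMIs of the compared classes, and the level of a gene that it would give is called the free RNA level below. That estimate is generous, and it reached its limit of 100% in the stellate-like and B-like cells of both libraries and in N-LKO neutrophil-like cells. A level is said to lie above free RNA where the lower bound of its interval does. Mixed and unnamed clusters, with 948 and 377 cells in WT and 2747 and 2453 in N-LKO, stayed outside the classes. The dendritic-like class was the cluster of Xcr1 and Clec9a and also held cycling markers, at 1027 CPM for WT and 1311 CPM in N-LKO. Sub-cluster M6, of 6 WT and 390 N-LKO cells, scored highest for the dendritic markers, with Cd209a, Flt3 and Clec10a among its leading genes. It was kept in the monocyte-like class because such cells formed a sub-cluster of their own almost only in N-LKO, while Cd209a was among the leading genes of the WT monocyte-like cells, so that class holds both kinds, and its dendritic markers together were at 346 and 336 CPM.

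Of the 58 rows, 34 were measured, meaning that at least 1 class held 30 or more of the row's UMIs in both libraries together, and these were 23 ligands and 11 receptors. Another 15 were detected below that level. They were Ccl1, Ccl11, Ccl17, Ccl20, Ccl21a, Ccl26, Ccl28, Cxcl15, Cxcl17 and Cxcl3 among the ligands and Ccr10, Ccr3, Ccr4, Ccr8 and Cxcr1 among the receptors. Ccl17, a ligand of Ccr4 and the one with most UMIs in both libraries together, had 25 UMIs in WT and 44 in N-LKO over all barcodes. The remaining 9 rows had no UMI in either library, and all of them belong to Ccl19, Ccl21 and Ccl27 genes that have near-identical copies. Reads shared by such copies can be lost in counting, so the values of Ccl19, Ccl21a and Ccl27a are uncertain.

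Since each group had a single library, no p-value was computed. A member was called higher or lower in a class when its CPM differed at least 2-fold between the libraries, among genes with at least 30 UMIs in that class in both libraries together, and ratios are given as log2 of N-LKO over WT. Where 2 values are joined without naming the library, the WT value comes first. All intervals are exact 95% intervals that cover counting error only. Over the 11 classes with at least 100 cells in each library, 179 pairs of member and class could be compared. In 36 pairs (20.1%) the member was at least 2-fold higher in N-LKO, against 7.04% of all pairs of gene and class. In 30 pairs (16.8%) it was at least 2-fold lower, against 6.44% of all pairs. A member counts once in each class where it was called, so the pairs are not separate observations. Ccl9, Ccl6, Ccr2, Cxcl1 and Cxcl2 recurred among the higher pairs and Cxcl12 among the lower ones, so these shares do not describe the family as a whole. The level in the higher library lay above the free RNA level in 33 of the 36 higher pairs and in 21 of the 30 lower pairs.

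By class, the members' counts read against all genes of the same class as follows. In hepatocyte-like cells 6 of 21 measured members were higher (6.01% of all genes) and 2 lower (3.84%), with a median log2 ratio of 0.42 against 0.07 over all genes. Endothelial-like cells had 5 of 16 higher (11.4%) and 1 lower (7.08%), with medians of 0.88 and 0.08. Kupffer-like cells had 5 of 24 higher (5.2%) and 6 lower (5.65%), and monocyte-like cells 1 of 18 higher (4.32%) and 4 lower (7.25%). In stellate-like cells 2 of 19 were higher (6.07%) and 3 lower (6.71%). Cholangiocyte-like cells had 4 of 12 higher (6.68%) and 1 lower (5.87%), T-like cells 3 of 14 higher (4.92%) and 4 lower (7.06%), and B-like cells 5 of 17 higher (9.35%) and 3 lower (8.01%). Neutrophil-like cells had 2 of 16 higher (10.6%) and 3 lower (8.41%). Dendritic-like cells had 1 of 10 higher (6.46%) and 2 lower (5.38%), and plasmacytoid dendritic-like cells 2 of 12 higher (7.35%) and 1 lower (7.58%).

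**Figure D1:**
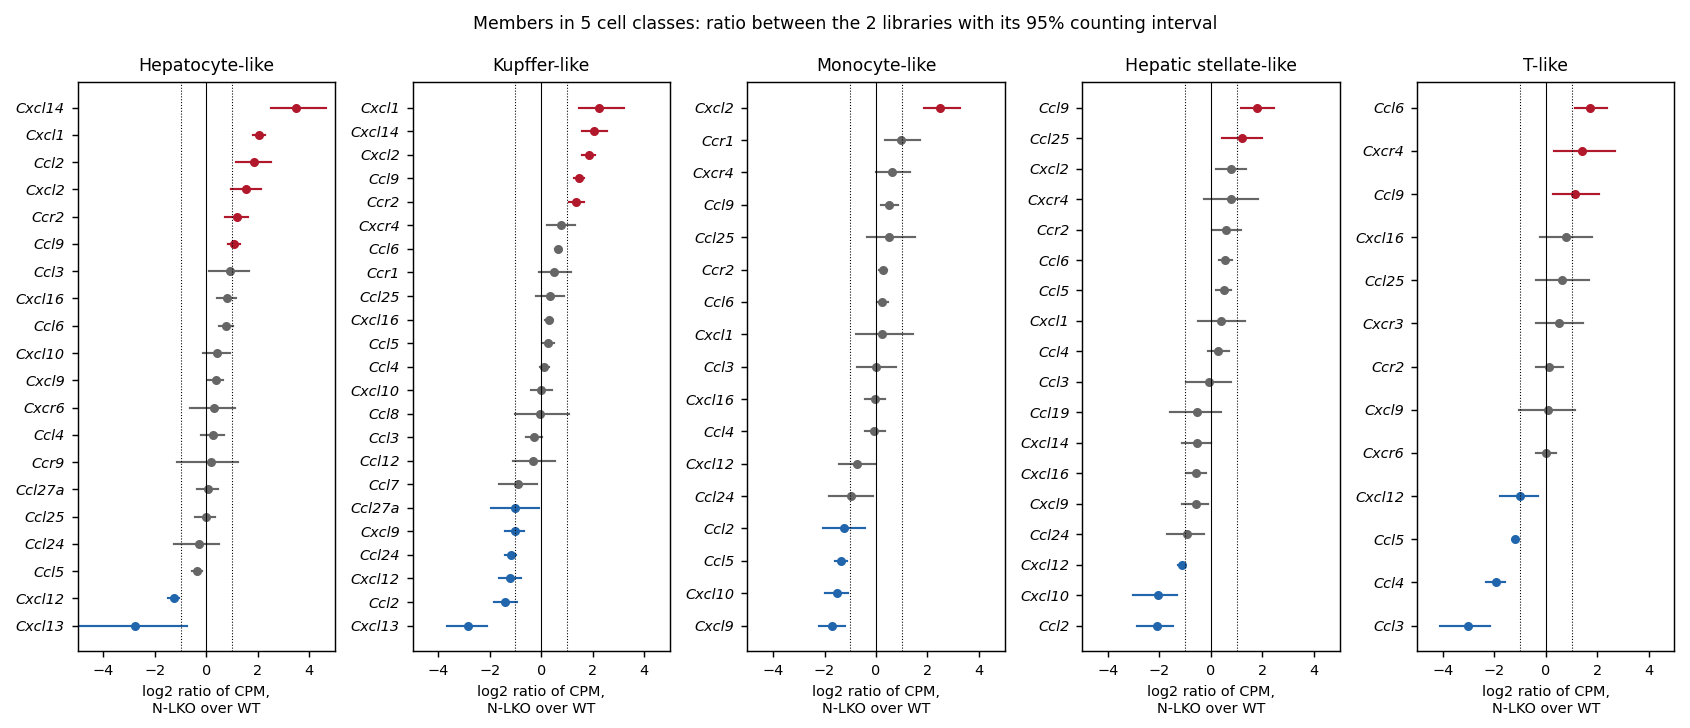
Log2 ratio of CPM (N-LKO over WT, horizontal axis) of measured members in 5 cell classes, 1 row per member, with exact 95% counting intervals as lines; dotted lines mark 2-fold, red and blue points are called higher and lower, and intervals are drawn up to the edge of the axis. Cxcl14 (3.48) and Cxcl1 (2.05) have the highest ratios in hepatocyte-like cells, Cxcl2 (2.50) is the only higher member in monocyte-like cells, and Ccl3 (-3.01) is lowest in T-like cells.

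Ligands of Cxcr2, which attract neutrophils, were called higher in several N-LKO classes. Cxcl1 was at 17.1 CPM for WT and 70.7 CPM in N-LKO hepatocyte-like cells (275 and 325 UMIs), with a log2 ratio of 2.05 (1.81 to 2.29). Its free RNA level there was 8.08 CPM for WT and 7.58 CPM in N-LKO, and both libraries lay above it. The same ligand was at 21.7 and 73.0 CPM in cholangiocyte-like cells (7 and 67 UMIs; log2 ratio 1.66, 0.63 to 3.12) and at 5.44 and 26.4 CPM in Kupffer-like cells (log2 ratio 2.23, 1.46 to 3.22). In endothelial-like cells Cxcl1 was at 6.37 and 18.0 CPM (log2 ratio 1.46), and in WT that was close to the free RNA level of 5.38 CPM. Hepatocyte-like cells held 70.2% of the Cxcl1 UMIs of all WT cells and 34.1% of those of all N-LKO cells. Unnamed clusters whose highest marker score was that of hepatocytes, 16 with 354 WT cells and 6 with 2090 N-LKO cells, had Cxcl1 at 27.5 CPM (16.8 to 42.5) and 32.7 CPM (27.3 to 38.7), and these intervals overlapped. Thinned to 1000 UMIs per cell, 1.56% of WT (1.32 to 1.83) and 5.13% of N-LKO (4.23 to 6.17) hepatocyte-like cells had a Cxcl1 UMI, against 0.55% and 1.57% of T-like cells, taken as the background class. Without thinning, the shares in hepatocyte-like cells were 2.61% and 9.21%.

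Cxcl2, the other main Cxcr2 ligand, had other main sources. Its highest level was in neutrophil-like cells, at 668 CPM (547 to 808) in WT and 484 CPM (444 to 527) in N-LKO, where it was not called. Kupffer-like cells held 144 UMIs in WT and 1260 in N-LKO, which is 60.3 CPM (50.8 to 71.0) and 218 CPM (206 to 230) and a log2 ratio of 1.85 (1.60 to 2.11). In monocyte-like cells Cxcl2 was at 20.01 CPM for WT and 116 CPM for N-LKO (20 and 245 UMIs; log2 ratio 2.50, 1.87 to 3.27). All 4 of these Kupffer-like and monocyte-like levels were above free RNA, at most 14.8 CPM. In hepatocyte-like cells the ratio was 1.54, but 3.66 and 10.7 CPM were no higher than the free RNA levels of 4.47 and 11.3 CPM, and B-like cells showed 7.18 and 50.5 CPM against 5.14 and 29.8 CPM of free RNA. The share of Kupffer-like cells with a Cxcl2 UMI was 4.58% (3.61 to 5.71) in WT and 10.5% (9.53 to 11.6) in N-LKO after thinning, and 5.999% and 12.9% before. In T-like cells 0 of 909 thinned WT cells had one, which allows a share of up to 0.33% when 3 cells are taken as the limit, and 1.42% of N-LKO cells did. Cxcl5, another ligand of Cxcr2, was measured only in cholangiocyte-like cells, at 24.8 and 33.8 CPM (8 and 31 UMIs).

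The promoters of Cxcl1, Cxcl2, Cxcl10 and Cxcl9 are shown because these 4 ligands share chromosome 5 and differed in direction, though in different classes. Cxcl1 and Cxcl2 were higher in N-LKO Kupffer-like cells, and Cxcl10 and Cxcl9 were lower in N-LKO monocyte-like cells. In Kupffer-like cells Cxcl9 was lower as well, but Cxcl10 was level, and in monocyte-like cells Cxcl2 was higher. Each line gives the 250 bases before the first annotated start in RefSeq (GRCm38.p6), read 5′ to 3′ on the strand of the gene. The windows are chr5:90890995-90891244 for Cxcl1 and chr5:90903649-90903898 for Cxcl2, both on the forward strand, and chr5:92348890-92349139 for Cxcl10 and chr5:92328080-92328329 for Cxcl9, both on the reverse strand. These coordinates are those of RefSeq and not of the count files, which the submitters' notes place on mm9. Capitals mark matches on either strand to GGG and TTCC with any 3 bases between them or GGG and CCC with any 4 between them (both kappaB-type letters), TGANTCA (AP-1 letters), TTTC and TTTC with any 2 between them (interferon-stimulated response element letters) or TTC and GAA with any 3 between them (interferon gamma activated site letters), and overlapping matches run together.
Cxcl1: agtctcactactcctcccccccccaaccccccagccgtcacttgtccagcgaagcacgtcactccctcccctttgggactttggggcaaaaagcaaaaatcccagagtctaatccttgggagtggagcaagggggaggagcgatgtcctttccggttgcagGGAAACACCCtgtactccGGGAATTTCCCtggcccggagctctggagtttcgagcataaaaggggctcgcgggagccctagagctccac
Cxcl2: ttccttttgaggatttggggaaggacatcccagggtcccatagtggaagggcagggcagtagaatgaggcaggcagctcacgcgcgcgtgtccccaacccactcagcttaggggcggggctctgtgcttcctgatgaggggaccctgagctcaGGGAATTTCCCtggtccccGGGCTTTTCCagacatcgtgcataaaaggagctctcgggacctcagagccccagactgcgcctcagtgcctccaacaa
Cxcl10: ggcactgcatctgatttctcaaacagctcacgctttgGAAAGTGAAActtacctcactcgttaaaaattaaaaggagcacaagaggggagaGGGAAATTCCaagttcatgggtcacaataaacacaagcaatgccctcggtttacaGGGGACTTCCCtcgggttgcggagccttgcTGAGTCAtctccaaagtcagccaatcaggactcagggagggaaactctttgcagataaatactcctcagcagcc
Cxcl9: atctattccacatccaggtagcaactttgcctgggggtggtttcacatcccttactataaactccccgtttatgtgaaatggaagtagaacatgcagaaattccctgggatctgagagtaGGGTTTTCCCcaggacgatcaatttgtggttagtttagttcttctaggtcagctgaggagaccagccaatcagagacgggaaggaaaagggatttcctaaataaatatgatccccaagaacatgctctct

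Cxcl1 and Cxcl2 each held 3 matches, all of the first kappaB-type form. Cxcl10 held 5, which were 3 kappaB-type matches, 1 AP-1 match and 1 interferon-stimulated response element match, and Cxcl9 held 1. Of the 52 member symbols, 37 had a promoter in the table. That form occurred in 8 of these 37 (21.6%), namely Ccl1, Ccl20, Ccl9, Ccr3, Cxcl1, Cxcl10, Cxcl2 and Cxcl3, and in 4.65% of all 32851 promoter windows of that length. The other kappaB-type form occurred in 13.5% of the members and 10.3% of all windows, TGANTCA in 10.8% and 6.75%, the interferon-stimulated response element letters in 8.11% and 2.98%, and the interferon gamma activated site letters in 8.11% and 7.02%. A match describes the letters and is not evidence of binding.

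Much of the Kupffer-like Cxcl2 signal lay in a small group of cells. Clustering without the member genes split the Kupffer-like class into sub-clusters, and 1 of them, M9, held 209 N-LKO cells and 6 WT cells. These 209 cells were 5.89% of the N-LKO class and carried 59.5% of its Cxcl2 UMIs, 69.1% of its Cxcl10 UMIs, 49.0% of its Cxcl1 UMIs, 38.4% of its Ccl4 UMIs and 28.9% of its Ccl3 UMIs. Their levels were 2104 CPM for Cxcl2, 1173 CPM for Ccl4, 339 CPM for Cxcl10, 210 CPM for Cxcl1 and 208 CPM for Ccl3, and 176 of the 209 had a Cxcl2 UMI. By contrast, M9 held 6.68% of the Ccl9 UMIs and 3.83% of the Cxcl14 UMIs, near its share of cells. The 8 Kupffer markers together were at 3706 CPM in M9 and 6400 CPM in the rest of the N-LKO class, the neutrophil markers at 132 and 90.4 CPM, and the monocyte markers at 626 and 880 CPM. Without M9, Kupffer-like cells had 57.2 CPM of Cxcl2 (47.96 to 67.6) in WT and 93.9 CPM (86.0 to 102) in N-LKO. The log2 ratio was then 0.71 (0.44 to 1.00), below 2-fold, while that of Cxcl1 stayed above 2-fold at 1.46. That split was examined after the values had been seen.

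The cells of the libraries also lay in different clusters. Of the Kupffer-like cells, 1440 of WT were in sub-cluster M2, which held 39 N-LKO cells. Of N-LKO, 1581 and 1539 were in M0 and M1, which held 29 and 24 WT cells. The Kupffer marker score was 0.231 in M0, where 0.2 was needed for a name, 0.997 in M1 and 0.933 in M2. Mmp12, Gpnmb and Trem2 were among the leading genes of M0, and no Kupffer marker was. Gpnmb is also on the list of monocyte markers. The calls of this class therefore compare largely different sub-clusters. The cycling sub-cluster M7 was the only one with more than 100 cells of each, 118 in WT and 178 in N-LKO. Within it Cxcl2 was at 37.2 CPM for WT and 115 CPM in N-LKO (8 and 46 UMIs), and Ccl9 at 74.3 and 213 CPM (16 and 85 UMIs). Ccr2 stood at 74.3 and 183 CPM there (16 and 73 UMIs), and Cxcl14 at 4.64 and 77.7 CPM (1 and 31 UMIs). The single WT UMI of Cxcl14 lay below the 13.9 CPM that 3 UMIs would give. Ccl24 was at 218 and 85.3 CPM in M7 (47 and 34 UMIs), Ccl2 at 65.0 and 7.52 CPM (14 and 3 UMIs), and Cxcl10 at 60.4 and 15.04 CPM (13 and 6 UMIs). Of the members named for M7, only Cxcl10 had overlapping intervals. Each of the M7 differences given here pointed the same way as in the whole class except for Cxcl10, which was level in the whole class. Monocyte-like cells also lay apart, with 752 WT and 48 N-LKO cells in sub-cluster M4 and 13 WT and 1176 N-LKO cells in M3, so the calls of that class compare largely different sub-clusters. Within M4, Cxcl2 was at 20.6 CPM (12.6 to 31.9) in WT and 123 CPM (56.4 to 234) in N-LKO, on 20 and 9 UMIs. Cxcl9 was at 82.6 CPM and Cxcl10 at 100.1 CPM in its WT cells, and both had 0 UMIs in its N-LKO cells, which allows up to 41.1 CPM (3 UMIs). Ccl2 was at 27.9 CPM in WT and had 0 UMIs in N-LKO, which allows a level above that of WT. Without the dendritic sub-cluster M6, the log2 ratios of the monocyte-like class were 2.82 for Cxcl2, -1.51 for Cxcl9, -1.20 for Cxcl10 and -1.60 for Ccl5, and that of Ccl2 was -0.96 and no longer called. Hepatocyte-like cells split likewise: 8199 WT cells were in cluster 0 and 1997 N-LKO cells in cluster 5. In cluster 5, which also held 107 WT cells, Cxcl1 was at 57.6 CPM (29.7 to 101) in WT and 72.2 CPM (64.6 to 80.6) in N-LKO, and these intervals overlapped.

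**Figure D2:**
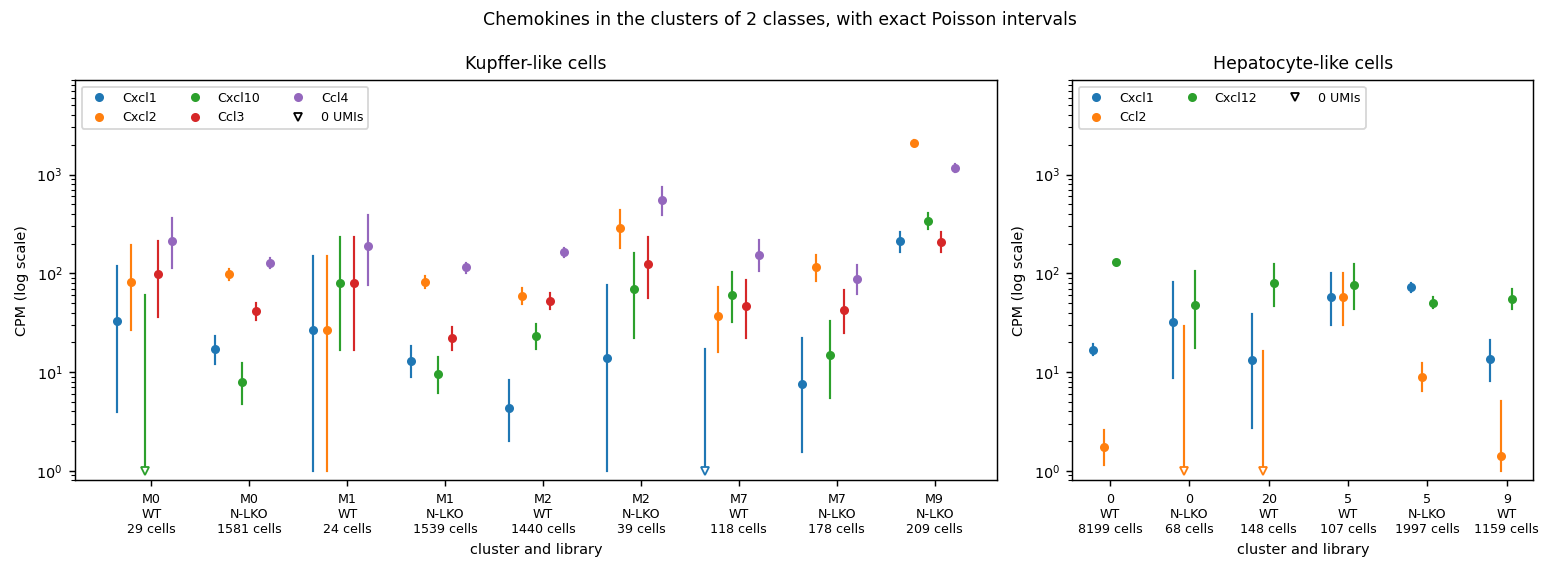
CPM (vertical log axis) of 5 chemokines in the sub-clusters of Kupffer-like cells and of 3 chemokines in the clusters of hepatocyte-like cells, by library, with exact Poisson intervals; open triangles mark 0 UMIs. Sub-cluster M9 stands at 2104 CPM of Cxcl2, and cluster 5 of the hepatocyte-like cells has 57.6 CPM of Ccl2 in WT and 9.002 CPM in N-LKO.

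Ccl2 draws Ccr2-bearing monocytes out of the blood, and the class with its highest level differed between the libraries. In WT it was highest in hepatic stellate-like cells, at 83.5 CPM (139 UMIs; 70.2 to 98.6), and in N-LKO in cholangiocyte-like cells, at 78.4 CPM (72 UMIs; 61.3 to 98.7). Stellate-like cells of N-LKO had 19.1 CPM (11.8 to 29.2), a log2 ratio of -2.10 (-2.87 to -1.46). Cholangiocyte-like cells of WT had 24.8 CPM (8 UMIs; 10.7 to 48.8), a log2 ratio of 1.58 (0.61 to 2.93). Markers of other types differed in cholangiocyte-like cells too, those of stellate cells at 186 and 482 CPM, of neutrophils at 34.1 and 274 CPM and of migratory dendritic cells at 198 and 485 CPM, and their part in the Ccl2 and Cxcl1 values of that class was not tested. Epcam, one of its markers, and Spp1 were among the leading genes of that class. The paper reports both as high in its N-LKO hepatocyte group enriched for tumor cells. Whether the cholangiocyte-like class held tumor cells was not tested. Of the Ccl2 UMIs of all cells, stellate-like cells held 37.2% in WT and 5.26% in N-LKO, and Kupffer-like cells 24.1% and 20.8%. Cholangiocyte-like cells held 18.0% and mixed clusters 18.8% of those of N-LKO. The level of Ccl2 was also lower in Kupffer-like cells, at 37.7 and 14.3 CPM (log2 ratio -1.39), and in monocyte-like cells, at 29.0 and 12.3 CPM (log2 ratio -1.24). In hepatocyte-like cells it was at 2.42 CPM in WT, below the free RNA level of 4.47 CPM, and at 8.70 CPM in N-LKO (log2 ratio 1.85), but within cluster 5 the order was the opposite, 57.6 CPM (29.7 to 101; 12 UMIs) in WT and 9.002 CPM (6.43 to 12.3) in N-LKO.

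Several of the Ccl2 calls depended on how cells were chosen. With the minimum lowered to 500 UMIs per cell, together with a lower minimum of genes and new clusters, the ratio in monocyte-like cells was 0.082, and the values closest to 0 among the alternatives were -0.41 in Kupffer-like, 0.43 in hepatocyte-like, 0.87 in cholangiocyte-like and -1.63 in stellate-like cells. The stellate-like class also held endothelial markers at 3478 CPM for WT and 1676 CPM in N-LKO, and Kupffer markers at 2610 and 1754 CPM, and their part in its chemokine values was not tested. Ccl7 and Ccl12, the other listed ligands of Ccr2, were measured in Kupffer-like cells only, Ccl7 at 12.6 and 6.74 CPM and Ccl12 at 8.79 and 7.09 CPM, and neither was called.

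**Figure D3:**
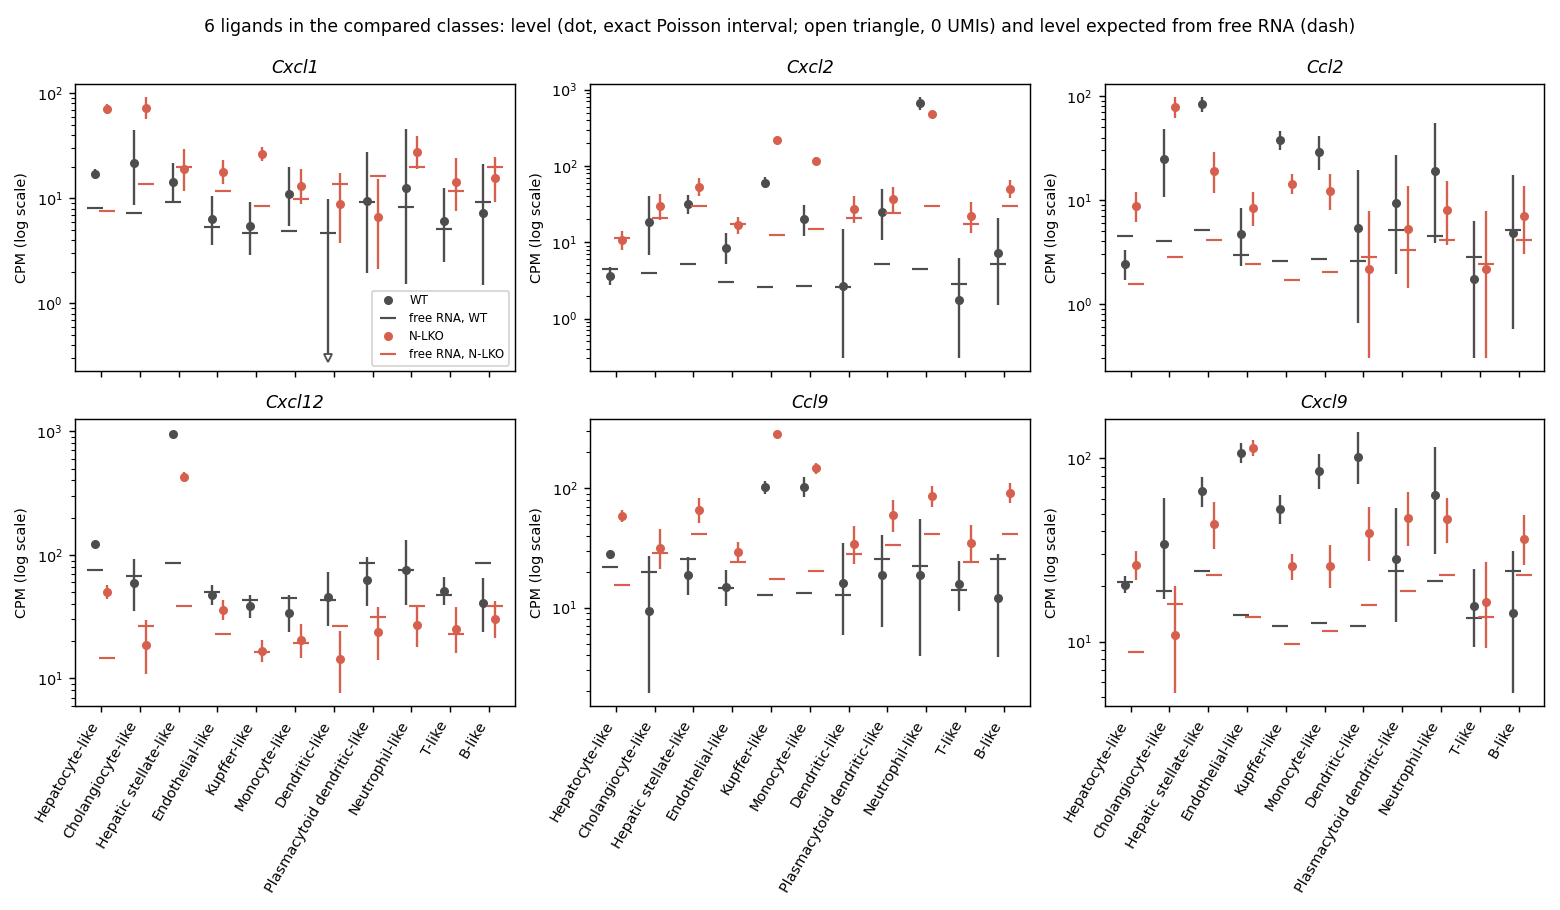
CPM (vertical log axis) of Cxcl1, Cxcl2, Ccl2, Cxcl12, Ccl9 and Cxcl9 in the 11 compared classes of WT (grey) and N-LKO (red), with exact Poisson intervals as lines and the level expected from free RNA as dashes; the open triangle marks 0 UMIs and lines end at the floor of the axis. Ccl2 is highest in stellate-like cells of WT (83.5 CPM) and in cholangiocyte-like cells of N-LKO (78.4 CPM), and Cxcl12 outside stellate-like and hepatocyte-like cells sits near or below its free RNA dashes, apart from endothelial-like cells of N-LKO (35.9 CPM).

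Cxcl9 and Cxcl10 bind Cxcr3 on activated T cells. Cxcl9 was highest among the compared classes in endothelial-like cells, at 107 CPM (94.6 to 121) in WT and 114 CPM (103 to 126) in N-LKO, with a log2 ratio of 0.09 (-0.14 to 0.32). In monocyte-like cells it was at 85.0 and 26.0 CPM (85 and 55 UMIs; log2 ratio -1.71, -2.23 to -1.20). Dendritic-like cells had 102 and 39.4 CPM (log2 ratio -1.37) and Kupffer-like cells 52.7 and 25.8 CPM (log2 ratio -1.03). In neutrophil-like cells the log2 ratio was -0.50 and Cxcl9 was not called. The 77 WT and 148 N-LKO migratory dendritic-like cells, too few in WT to be compared, had 242 and 25.1 CPM (30 and 6 UMIs). B-like cells had 14.4 and 36.5 CPM (log2 ratio 1.25), on 6 and 42 UMIs and with free RNA at 24.2 and 23.1 CPM. Over 12 alternatives, Cxcl9 in Kupffer-like cells was at least 2-fold lower in 5.

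Cxcl10 was at 99.0 CPM for WT and 34.5 CPM in N-LKO monocyte-like cells (99 and 73 UMIs), a log2 ratio of -1.52 (-1.98 to -1.07). Stellate-like cells had 55.3 and 12.7 CPM (log2 ratio -2.08) and neutrophil-like cells 81.9 and 23.2 CPM (log2 ratio -1.84, on 13 and 26 UMIs). In Kupffer-like cells the level was 30.1 and 30.2 CPM, and without M9 it was 26.9 CPM (20.7 to 34.4) in WT and 9.95 CPM (7.47 to 12.98) in N-LKO. Within cluster 5 of the hepatocyte-like cells, WT had 101 CPM (62.4 to 154) and N-LKO 10.1 CPM (7.39 to 13.6) of Cxcl10, and 168 and 26.8 CPM of Cxcl9. In the whole hepatocyte-like class neither was called, with 7.39 and 9.79 CPM of Cxcl10 and 20.5 and 26.3 CPM of Cxcl9. Across alternatives the monocyte-like Cxcl10 ratio ranged from -2.42 to -0.49, the latter with the lower minimums of UMIs and genes and new clusters. Cxcr3, the receptor, was measured in T-like cells only, at 18.3 and 26.3 CPM (21 and 24 UMIs).

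Ccl3, Ccl4 and Ccl5, inflammatory CC chemokines, had lymphoid and myeloid sources. Ccl5 had the highest level of all members in each library, in T-like cells of WT and in NK-like cells of N-LKO (NK-like cells, which were not compared, had 3357 and 2611 CPM). In T-like cells it was at 5484 CPM for WT and 2388 CPM for N-LKO (6288 and 2183 UMIs; log2 ratio -1.20, -1.27 to -1.13). The share of T-like cells with a Ccl5 UMI differed less, 71.7% (68.7 to 74.6) in WT and 65.4% (61.7 to 68.9) in N-LKO after thinning and 73.9% and 70.1% before, against 6.84% and 4.32% of hepatocyte-like cells. Ccl4 in T-like cells was at 333 and 86.4 CPM (log2 ratio -1.94, -2.32 to -1.59), and Ccl3 at 101 and 12.03 CPM (log2 ratio -3.01, -4.11 to -2.18). All 3 were at least 2-fold lower in N-LKO T-like cells, but most T-like cells of the libraries lay in different sub-clusters. L0, with Gzma and Cd8b1 among its leading genes, held 790 WT and 54 N-LKO cells, and L1, with Lef1 and Themis, held 33 and 593. Ccl5 was at 5885 and 1997 CPM in L0, at 3317 and 2518 CPM in L1, and at 3530 and 1737 CPM in the cycling sub-cluster L4 (86 and 55 cells). Ccl4 was at 353 and 23.9 CPM in L0 (2 UMIs in N-LKO), 412 and 99.5 CPM in L1 and 183 and 41.4 CPM in L4. Ccl3 in L4 rested on 3 UMIs in each library. With T-like and NK-like cells joined, the ratios were -1.13, -1.63 and -2.68. NK markers in the T-like class were at 456 CPM for WT and 229 CPM in N-LKO, and their part was not tested. In the 91 WT and 137 N-LKO NK-like cells, which were not compared, Ccl4 was at 690 and 281 CPM and Ccl5 at 3357 and 2611 CPM.

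In myeloid cells Ccl3 and Ccl4 were called in no class. Ccl3 was at 54.0 and 44.2 CPM and Ccl4 at 172 and 188 CPM in Kupffer-like cells. Neutrophil-like cells had 158 CPM of Ccl4 in WT and 302 CPM in N-LKO, giving a log2 ratio of 0.91, and plasmacytoid dendritic-like cells 172 and 342 CPM, a log2 ratio of 0.98, both just under 2-fold. Ccl5 was called lower in B-like cells (939 and 313 CPM), monocyte-like cells (375 and 146 CPM) and neutrophil-like cells (964 and 360 CPM). In each of these classes most WT Ccl5 UMIs were in the few cells that also held a UMI of a T or NK marker. For neutrophil-like cells of WT, 20 of 114 cells with such a UMI carried 145 of the 153 Ccl5 UMIs, and in the other 94 cells Ccl5 was at 61.0 CPM (26.3 to 120), against 106 CPM (85.6 to 129) in the corresponding N-LKO cells. B-like cells without such a UMI were at 144 and 105 CPM and monocyte-like cells at 156 CPM (132 to 184) and 78.3 CPM (66.4 to 91.8).

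The macrophage ligands Ccl6 and Ccl9 act on Ccr1 in the mouse. Ccl6 was the most abundant ligand of Kupffer-like cells, at 550 CPM for WT and 859 CPM in N-LKO, giving a log2 ratio of 0.64 (0.55 to 0.73). Ccl9 in Kupffer-like cells was at 102 CPM (89.7 to 116) and 284 CPM (271 to 299), a log2 ratio of 1.48 (1.28 to 1.68) that stayed above 2-fold in all 12 alternatives that gave a value. The share of Kupffer-like cells with a Ccl9 UMI was 5.26% (4.22 to 6.46) in WT and 19.99% (18.7 to 21.3) in N-LKO after thinning and 8.16% and 28.6% before, against 1.87% and 3.70% of T-like cells. In monocyte-like cells Ccl9 was at 103 and 147 CPM and was not called. Hepatocyte-like cells had 28.0 and 58.9 CPM of Ccl9 (log2 ratio 1.08), with free RNA at 22.1 and 15.6 CPM. Within cluster 5, WT and N-LKO had 62.4 CPM (33.2 to 107) and 60.8 CPM (53.7 to 68.5).

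Ccl6 or Ccl9 was also called higher in T-like, B-like, neutrophil-like, plasmacytoid dendritic-like, stellate-like, cholangiocyte-like, dendritic-like and endothelial-like cells. There the free RNA levels themselves were higher in N-LKO. In T-like cells Ccl9 was at 15.7 and 35.0 CPM with free RNA at 14.1 and 24.2 CPM, and Ccl6 at 28.8 and 96.3 CPM with free RNA at 16.4 and 49.7 CPM. Neutrophil-like cells held Kupffer markers at 1204 and 1501 CPM, and Ccl9 at 18.9 and 85.8 CPM on 3 and 96 UMIs. B-like cells, with Kupffer markers at 1018 and 1059 CPM, had 11.97 and 92.2 CPM of Ccl9 and 45.5 and 198 CPM of Ccl6. The part of free RNA and of foreign cells in these values was not tested.

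Cxcl14, whose receptor is not settled, had its highest level in a different class of each library. In WT stellate-like cells led with 51.7 CPM (86 UMIs) and Kupffer-like cells had 16.3 CPM (39 UMIs), whereas in N-LKO Kupffer-like cells led with 67.8 CPM (392 UMIs) and stellate-like cells had 35.5 CPM (39 UMIs). The log2 ratio in Kupffer-like cells was 2.04 (1.58 to 2.57) and remained at 1.75 or more in every alternative that gave a value. The thinned share of Kupffer-like cells with a Cxcl14 UMI was 1.299% (0.81 to 1.98) in WT and 6.09% (5.33 to 6.93) in N-LKO, 2.10% and 9.42% unthinned, against 0.11% and 0.43% of T-like cells. Hepatocyte-like cells had 0.68 CPM for WT and 7.83 CPM in N-LKO (11 and 36 UMIs), where free RNA was at 1.28 and 3.48 CPM. Cxcl16, a membrane-anchored ligand of Cxcr6, was at 175 CPM for WT and 216 CPM in N-LKO Kupffer-like cells and was called in no class, with cholangiocyte-like cells just under 2-fold at 52.6 and 108 CPM.

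Ccl24 and Cxcl13 were lower in N-LKO Kupffer-like cells. Ccl24, which attracts eosinophils through Ccr3, was at 156 CPM (141 to 173) in WT and 68.4 CPM (61.9 to 75.5) in N-LKO (373 and 396 UMIs), a log2 ratio of -1.19. Among the N-LKO sub-clusters it was at 16.1 CPM (11.4 to 22.0) in M0, whose Kupffer marker score was low. In M1 it was at 114 CPM (101 to 128), so its level varied within the class. Its share of Kupffer-like cells was 13.6% and 5.25% after thinning and 17.3% and 7.61% before, against 1.10% and 1.00% of T-like cells. Between alternatives its ratio ranged from -1.36 to -0.53. Cxcl13, the ligand that attracts B cells through Cxcr5, was at 25.1 and 3.46 CPM in Kupffer-like cells (60 and 20 UMIs; log2 ratio -2.84, -3.67 to -2.11). Its highest level was in mesothelial-like cells, at 180 CPM in 33 WT cells and 680 CPM in 80 N-LKO cells, which were too few to be compared. In hepatocyte-like cells it was at 2.17 CPM for WT and 0.22 CPM in N-LKO (35 UMIs and 1 UMI), the WT value near its free RNA level of 1.91 CPM.

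Cxcl12, which holds Cxcr4-bearing leukocytes in place, had its highest level in stellate-like cells of both libraries. Of its UMIs in all cells, stellate-like cells held 38.5% in WT and 31.6% in N-LKO, and hepatocyte-like cells 48.1% and 15.5%. Stellate-like cells had 947 CPM (900 to 995) in WT and 430 CPM (392 to 471) in N-LKO (1575 and 473 UMIs), a log2 ratio of -1.14 (-1.29 to -0.99). The share of stellate-like cells with a UMI was 58.2% (54.9 to 61.5) and 30.2% (26.6 to 34.0) after thinning and 74.9% and 41.3% before, against 5.17% and 2.56% of T-like cells. The 8 stellate markers of this class were also lower, at 9034 CPM for WT and 4910 CPM in N-LKO, and their part in the Cxcl12 ratio was not tested. Hepatocyte-like cells followed with 122 and 50.5 CPM (log2 ratio -1.27), above free RNA at 74.7 and 14.7 CPM. In the 6 other classes where Cxcl12 was called lower, namely Kupffer-like, cholangiocyte-like, T-like, neutrophil-like, dendritic-like and plasmacytoid dendritic-like cells, both libraries lay at the free RNA level, which itself was higher in WT. With free RNA subtracted, the stellate-like ratio was -0.96.

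Ccl25, Ccl27a, Ccl19 and Ccl22 are usually studied as ligands of tissue homing. Ccl25, the ligand of Ccr9, was higher in N-LKO endothelial-like cells, at 15.7 CPM (11.1 to 21.6) in WT and 37.6 CPM (31.5 to 44.7) in N-LKO, a log2 ratio of 1.25. Stellate-like cells had 15.03 and 34.6 CPM (log2 ratio 1.19) and cholangiocyte-like cells 9.29 and 32.7 CPM (log2 ratio 1.62, on 3 and 30 UMIs). Higher levels lay outside the classes, at 74.3 CPM in unnamed cluster 16 (354 WT cells) and 84.1 CPM in unnamed cluster 6 (2090 N-LKO cells). Ccl27a was called lower in endothelial-like cells, at 13.6 and 3.47 CPM with free RNA at 13.2 and 3.47 CPM, and in Kupffer-like cells, at 8.37 and 4.15 CPM with free RNA at 11.5 and 2.48 CPM. Ccl19, a ligand of Ccr7, was measured in stellate-like cells only, at 18.6 and 12.7 CPM. Ccl22, a ligand of Ccr4, was at 477 CPM for WT and 518 CPM in N-LKO migratory dendritic-like cells (59 and 124 UMIs), and Ccl8, a ligand of Ccr8, was at 5.02 and 5.01 CPM in Kupffer-like cells.

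**Figure D4:**
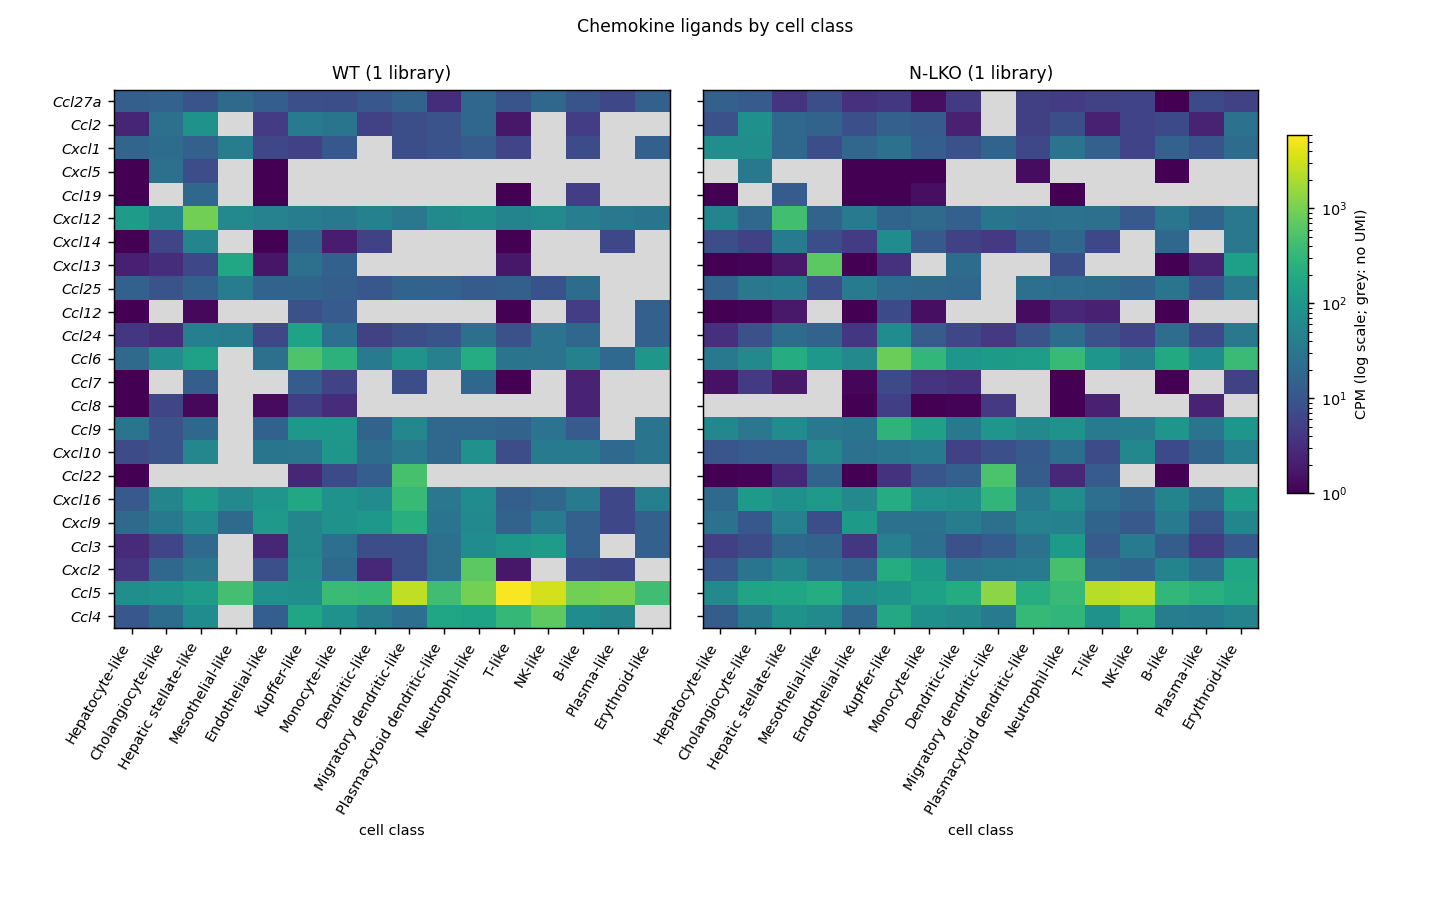
CPM (color, log scale) of the 23 measured ligands (rows) in 16 cell classes (columns) of the WT and N-LKO libraries; grey means no UMI. Ccl5 in T-like and NK-like cells, Cxcl12 in stellate-like cells, Ccl6 in Kupffer-like cells, Ccl22 in migratory dendritic-like cells and Cxcl2 in neutrophil-like cells stand out in both libraries.

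Of the receptors that could be compared in the class where they were highest, Cxcr5 was called there and the others were within 2-fold. Ccr2, the receptor of inflammatory monocytes, was highest in monocyte-like cells at 551 CPM (506 to 599) in WT and 664 CPM (630 to 700) in N-LKO, a log2 ratio of 0.27. Dendritic-like cells followed with 306 and 333 CPM, a lower level than in monocyte-like cells beyond counting error in both libraries. Cxcr2, the neutrophil receptor for Cxcl1 and Cxcl2, was at 145 CPM (91.9 to 217) in WT and 148 CPM (127 to 173) in N-LKO neutrophil-like cells, and Ccr1 was at 107 CPM in each. The intervals of the log2 ratio were -0.60 to 0.73 for Cxcr2 and -0.74 to 0.83 for Ccr1, so a difference of up to these bounds was not resolved. Cxcr6 was at 119 and 120 CPM in T-like cells and at 209 and 121 CPM in NK-like cells, which were not compared, and Ccr6, a receptor for Ccl20, at 31.1 and 34.8 CPM in B-like cells. Ccr7, which takes dendritic cells to lymph nodes, was at 453 and 481 CPM in migratory dendritic-like cells. Ccr9 was at 594 CPM (513 to 685) and 415 CPM (370 to 463) in plasmacytoid dendritic-like cells, a log2 ratio of -0.52 (-0.78 to -0.25).

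Differences in receptors were called in 3 patterns. Ccr2 was higher in N-LKO Kupffer-like cells, at 46.5 CPM (38.2 to 55.9) and 121 CPM (112 to 130), a log2 ratio of 1.37 (1.09 to 1.68). The share of Kupffer-like cells with a Ccr2 UMI was 3.28% (2.46 to 4.27) and 9.02% (8.10 to 10.0) after thinning and 5.19% and 13.3% before, against 0.69% and 1.44% of hepatocyte-like cells. Monocyte markers in the Kupffer-like class were at 357 CPM for WT and 865 CPM in N-LKO. Their list includes Gpnmb, a leading gene of M0, so that sum does not measure monocytes alone, and its part was not tested. Ccr2 in the N-LKO sub-clusters was at 180 CPM in M0, whose Kupffer marker score was low, and at 47.7 CPM in M1. With the lower minimums of UMIs and genes and new clusters the ratio was 0.23. Ccr2 was also called higher in neutrophil-like (56.7 and 173 CPM), B-like (33.5 and 109 CPM), endothelial-like (5.09 and 20.8 CPM) and hepatocyte-like cells (6.46 and 14.6 CPM), and with free RNA subtracted the hepatocyte-like ratio was -0.38 instead of 1.18.

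The other receptor calls concerned B-like cells and Cxcr4. Cxcr5, which takes B cells into follicles, was at 105 CPM (76.6 to 141) in WT and 47.9 CPM (36.1 to 62.3) in N-LKO B-like cells (44 and 55 UMIs), a log2 ratio of -1.14. Ccr7 in the same cells was at 50.3 and 20.01 CPM (21 and 23 UMIs; log2 ratio -1.33, -2.25 to -0.40). B markers were at 4110 and 3303 CPM there. Cxcr4 was highest in neutrophil-like cells, at 69.3 and 65.2 CPM, and its intervals there overlapped those of monocyte-like cells, at 27.0 and 41.6 CPM, in both libraries. It was called higher in T-like cells, at 8.72 and 24.1 CPM (10 and 22 UMIs), and in endothelial-like cells, at 1.27 and 10.4 CPM on 3 and 36 UMIs, with free RNA at 1.49 and 6.37 CPM.

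**Figure D5:**
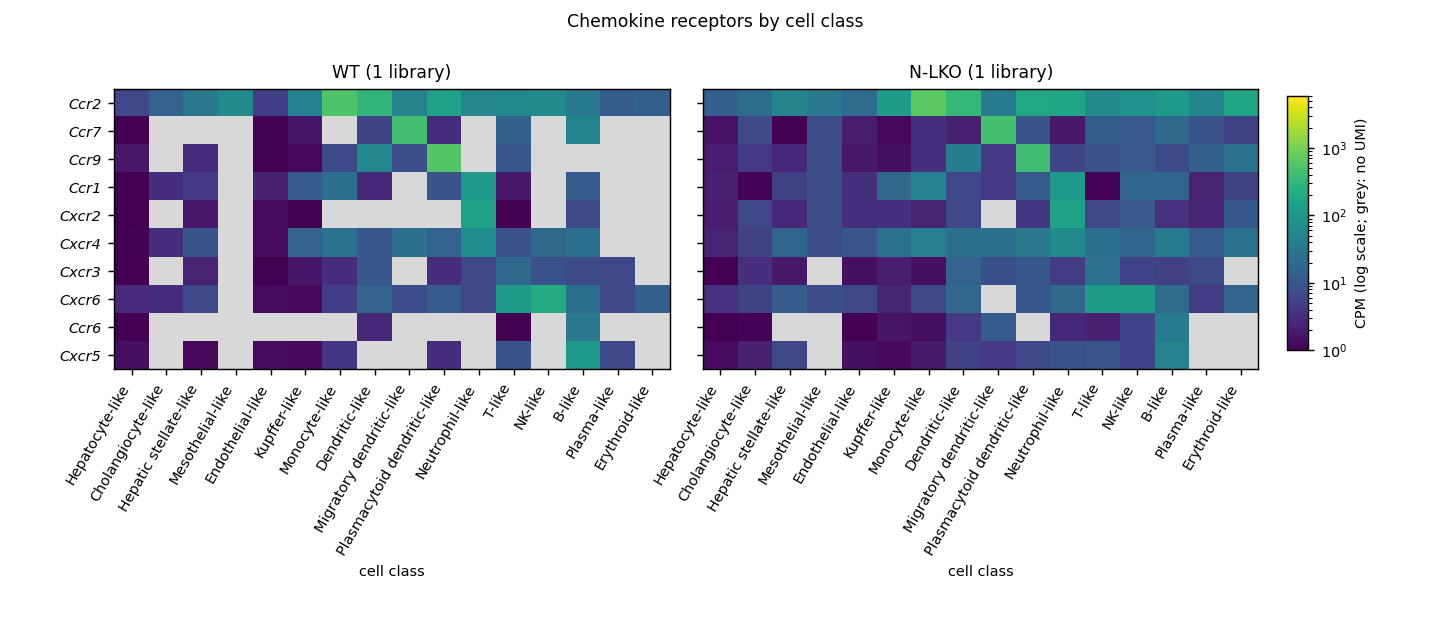
CPM (color, log scale) of 10 receptors (rows) in 16 cell classes (columns) of the WT and N-LKO libraries; grey means no UMI. Ccr2 in monocyte-like, Ccr7 in migratory dendritic-like, Ccr9 in plasmacytoid dendritic-like, and Cxcr2 in neutrophil-like cells lead in both libraries.

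For pairs of ligand and receptor, the calls of both sides were set beside each other. Cxcl1 or Cxcl2 was higher in hepatocyte-like, endothelial-like, cholangiocyte-like, Kupffer-like, monocyte-like and B-like cells. Their receptor Cxcr2 was measured in neutrophil-like cells only and was not called there. Ccl2 was lower in stellate-like, Kupffer-like and monocyte-like cells and higher in hepatocyte-like and cholangiocyte-like cells. Its receptor Ccr2 was within 2-fold in monocyte-like cells and called higher in hepatocyte-like, endothelial-like, Kupffer-like, B-like and neutrophil-like cells. The hepatocyte-like call did not hold with free RNA subtracted. Cxcl12 was lower in 8 classes, stellate-like cells among them, and its receptor Cxcr4 was within 2-fold in neutrophil-like and monocyte-like cells and higher in T-like and endothelial-like cells. Cxcl13 was lower in Kupffer-like and hepatocyte-like cells and Cxcr5 in B-like cells. Cxcl16 and Cxcr6 were called in no class, and Ccl22 could be compared in none. Ccr3, Ccr4, Ccr8 and Ccr10 were below the measured level, so their pairs have 1 side only.

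Genes around the chemokine system were read from 4 lists. Of 18 genes of NF-kappaB, interleukin 1, TNF and interferon gamma signalling, 16 were measured in hepatocyte-like cells and 3 were higher (6.01% of all genes), Nfkb2 (2.67 and 7.61 CPM), Tnfaip3 (6.27 and 12.6 CPM) and Il1r1 (33.1 and 169 CPM), with a median of 0.51 against 0.07 over all genes. In Kupffer-like cells 2 of 17 were higher (5.2% of all genes), Tnf, a cytokine known to induce Cxcl1 and Cxcl2, at 17.6 and 50.6 CPM, and Il1r1, at 11.7 and 53.9 CPM with free RNA at 10.3 and 50.2 CPM. Il1r1 was called higher in every compared class except cholangiocyte-like cells, and the part of free RNA in these calls was not tested. In stellate-like cells Irf1, an interferon-induced transcription factor, was the 1 lower gene of 16 (6.71% of all genes), at 99.2 and 45.5 CPM. Of 15 genes that respond to cell isolation, 5 of 14 measured had higher levels in hepatocyte-like cells of N-LKO (6.01% of all genes), Fos, Fosb, Egr1, Atf3 and Ier3, with a median of 0.65 against 0.07, and in stellate-like cells the median was -0.61 against -0.11. Their part in the Cxcl1 and Ccl2 values of those classes was not tested. Of 20 genes of receptor signalling, 0 of 20 were called in Kupffer-like and monocyte-like cells, while 6 of 19 were higher in endothelial-like cells (11.4% of all genes). Of 12 further chemokine system genes, Cx3cr1, the fractalkine receptor, was called higher in 5 classes. They were hepatocyte-like (9.31 and 23.1 CPM), endothelial-like, B-like, neutrophil-like and plasmacytoid dendritic-like cells, where 6.01% to 11.4% of all genes were higher. Cx3cr1 was not called in Kupffer-like or monocyte-like cells. The part of free RNA and of foreign cells in its calls was not tested.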

How the data were processed

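Single-cell RNA sequencing was measured in 1 WT and 1 N-LKO library. The authors made the deposited counts, whole UMI numbers for each gene in each barcode, with 10x chemistry and, per the labels, Cell Ranger 7.1.0 and mm9; Seurat is also named in the submitters' notes. No numeric cell filter was given in the sources used here, and 0 columns were left unused. The counts were loaded in Python 3.11.15 with scanpy 1.11.5, and barcodes with at least 1000 UMIs, 400 genes and at most 30% mitochondrial UMIs were kept (20158 in WT and 22214 in N-LKO). Doublets with a Scrublet score over 0.25 (1724 and 2363) were removed. Cells of both libraries were clustered together (2000 variable genes without the members, 30 principal components, Leiden with leidenalg 0.10.2, resolution 0.3), without integration. Clusters were named from 18 marker lists, and clusters with the markers of several types were left out as mixed. The thresholds for names and the sub-clustering resolution of 0.5 were set after the data had been seen.

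UMIs were summed by class and library and scaled to CPM (per 1000000 UMIs of the class). Log2 ratios had 0.5 UMI added to each sum, and intervals were exact (Poisson, conditional binomial, Clopper-Pearson, SciPy 1.17.1). The interval code was tested on simulated data. With 1 library per group no test across samples was made. Named members were the 6 with the highest mean level and the 4 highest and 4 lowest ratios of each compared class, measured receptors in their highest class, and both sides of 35 ligand and receptor pairs. Values of 1 member are not reported here. Values of other members, classes and sub-clusters were chosen after they had been seen. The members and lists were chosen with earlier results of these data known. Promoters came from the RefSeq table (GRCm38.p6).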

Additional observations from a re-analysis of the deposited data

Results flagged for a closer look

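Ccl2 had opposite directions in different classes, with log2 ratios of N-LKO over WT of 1.85 in hepatocyte-like and 1.58 in cholangiocyte-like cells and of -1.39 in Kupffer-like, -1.24 in monocyte-like and -2.10 in stellate-like cells. Cxcl9 likewise had log2 ratios of -1.03 in Kupffer-like, -1.71 in monocyte-like and -1.37 in dendritic-like cells and of 1.25 in B-like cells. With 1 library per group, these differences between classes were not tested.

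Chemokine system UMIs also appeared outside the compared classes. In mixed cluster 7 Ccl9 was at 200.3 CPM in 1448 N-LKO cells and 55.5 CPM in 573 WT cells. Mixed sub-cluster M5 had Ccr2 at 283 CPM (253 to 315) in 683 N-LKO cells and 127 CPM (82.1 to 187) in 114 WT cells.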

How the results depend on the processing

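There were 17 alternatives, some of which bore only on the counts of pairs or on 1 class. A pair had a value in at most 12 of them, and Cxcl12 in dendritic-like cells in 4. Of the 66 called pairs of member and class, 64 kept their direction and 39 stayed at least 2-fold wherever they had a value. Ccl2 in monocyte-like cells had a log2 ratio of 0.082 with minimums of 500 UMIs and fewer genes per cell and new clusters, and Ccr2 in hepatocyte-like cells one of -0.38 with free RNA subtracted; the cause was not tested. Against 36 higher and 30 lower pairs of 179, those lower minimums, under which partly other classes could be compared, gave 57 higher and 21 lower. A mitochondrial limit of 10% left 3 classes and 35 pairs, with 10 higher and 6 lower. Assigning cells one by one by their markers left 56 pairs, with 17 higher and 6 lower. No minimum of UMIs per gene gave 116 higher and 83 lower of 421 pairs, and a minimum of 100 UMIs gave 20 and 16 of 99. The other alternatives gave 28 to 44 higher and 21 to 31 lower pairs. Leaving out the Cxcl2-high Kupffer-like sub-cluster or the Cd209a sub-cluster, joining T-like with NK-like cells and counting only pairs above free RNA were alternatives chosen after seeing the data. No paired analysis was possible because each group had 1 library and no test was made. Depth limited members below 30 UMIs in a class, for which no ratio was read.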
